A study of Mus musculus with 20 samples.

Results

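The glucocorticoid response genes described here are 10 genes chosen by name from the 20375 genes that both deposited comparison tables list: the receptor genes Nr3c1 and Nr3c2, the receptor co-chaperone gene Fkbp5, and the target genes Tsc22d3, Sgk1, Ddit4, Zbtb16, Pdk4, Hif3a and Sult1a1. All 10 were found in both tables. The RNA came from medial prefrontal cortex of mice of the C57BL/6 strain, given CDS or PBS by injection into that region. The labels do not spell out CDS, and the title of the series calls the study a model of microglia depletion. There were 4 groups with 5 samples in each: CDS at 5 days after injection and its PBS controls (5 dpi, postnatal day 47), and CDS at 12 weeks of age and its PBS controls (postnatal day 84, 6 weeks after injection). All mice, controls included, had an injection into the cortex, and no group was left uninjected. No label gives a steroid treatment, a stress procedure or a hormone level for any group. The labels number the samples within a group and do not say whether they were separate animals, so that the deposited q-values measure the spread between these samples, which may be technical.

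Glucocorticoids are adrenal steroid hormones released with a daily rhythm and under stress. In the brain they act through the glucocorticoid receptor (Nr3c1) and the mineralocorticoid receptor (Nr3c2), which are held by chaperones in the cytoplasm, enter the nucleus when bound by hormone, and regulate genes that carry or neighbour a glucocorticoid response element, a palindrome of the half-site AGAACA. Fkbp5 encodes FKBP51, which lowers the hormone affinity of the receptor and is itself induced by it, a short negative feedback loop. Many targets are shared across tissues, and their RNA is used as a readout of hormone action.

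For each time the files hold, per gene, the log2 fold change (CDS over PBS) and its q-value, but no values per sample and no mean levels. The expression level of a gene, the overlap of the groups and the depth per sample are therefore unknown, and the cortical identity of the tissue could not be checked against the levels of its markers. A positive log2 fold change means higher in CDS cortex. A gene was called when its deposited q was under 0.05. Errors are standard errors implied by the fold change and the q-value.

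The promoters of the 3 genes called at 5 dpi are shown to give the sequence context of the genes the results turn on, with that of Sgk1, which holds the complete response element. They are RefSeq sequences on GRCm38.p6, from 250 bases before to 50 bases after an annotated start, read 5′ to 3′ on the strand of the gene. Capitals mark the half-site AGAACA or its reverse complement TGTTCT, and the core of the hypoxia response element, ACGTG or its reverse complement CACGT. In Sgk1 the second run of capitals is the full palindrome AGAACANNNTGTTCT, and the first run is an ACGTG match on each strand that overlaps a TGTTCT.
Ddit4 (chr10:59951721-59952020, minus strand): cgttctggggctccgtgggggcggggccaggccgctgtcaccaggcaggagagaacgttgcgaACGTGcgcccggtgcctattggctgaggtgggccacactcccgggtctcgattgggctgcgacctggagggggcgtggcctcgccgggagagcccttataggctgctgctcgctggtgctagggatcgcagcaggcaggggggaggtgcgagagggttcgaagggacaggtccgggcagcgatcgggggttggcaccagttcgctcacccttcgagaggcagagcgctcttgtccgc
Sult1a1 (chr7:126676369-126676668, minus strand): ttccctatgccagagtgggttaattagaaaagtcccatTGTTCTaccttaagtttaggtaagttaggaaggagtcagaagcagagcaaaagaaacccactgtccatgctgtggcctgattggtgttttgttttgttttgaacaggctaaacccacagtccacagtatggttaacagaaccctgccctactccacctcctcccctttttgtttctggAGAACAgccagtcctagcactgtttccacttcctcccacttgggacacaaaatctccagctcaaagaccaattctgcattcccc
Fkbp5 (chr17:28486100-28486399, minus strand): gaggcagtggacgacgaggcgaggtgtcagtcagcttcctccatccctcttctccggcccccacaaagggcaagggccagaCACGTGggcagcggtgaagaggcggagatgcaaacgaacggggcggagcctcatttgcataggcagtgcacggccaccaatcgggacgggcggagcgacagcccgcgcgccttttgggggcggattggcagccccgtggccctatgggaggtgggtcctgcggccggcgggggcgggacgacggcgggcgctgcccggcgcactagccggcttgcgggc
Sgk1, the fifth of 6 annotated starts (chr10:21993640-21993939, plus strand): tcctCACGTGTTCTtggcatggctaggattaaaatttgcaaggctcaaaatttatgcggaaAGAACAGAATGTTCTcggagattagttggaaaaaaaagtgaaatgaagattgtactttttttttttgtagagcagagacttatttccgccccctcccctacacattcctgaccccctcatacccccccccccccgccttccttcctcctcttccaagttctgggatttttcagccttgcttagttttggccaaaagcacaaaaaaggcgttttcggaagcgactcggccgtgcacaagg

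No promoter sequence was found for Zbtb16, and Nr3c1 was left out of the search, so the counts below do not cover these genes. Promoter windows were used for the other 8 of the 10 genes, 15 windows in all, because Sgk1 has 6 starts and Tsc22d3 has 3. The full palindrome was found in 1 of these windows, 189 bases before the fifth Sgk1 start, and in 3 of 32851 windows over all genes, or 0.00913%. The looser palindrome GNACANNNTGTNC was found in the same Sgk1 window, inside the full one, and in no other of the 15, against 0.475% of all windows. Half-sites, searched on both strands, stood in 5 of the 15 windows, those of Sult1a1, 3 of Sgk1 and 1 of Tsc22d3, and in 19.0% of all windows. In Sult1a1 they began 212 and 34 bases before the start. The hypoxia core was found in the windows of Ddit4 (187 bases before the start), Fkbp5 (169 bases, as CACGTG, a match on each strand) and Sgk1, and in 19.6% of all windows. These matches describe letters in short windows and show no binding, and known response elements can lie far outside them.

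At 5 dpi 3 of the 10 genes passed the threshold, and they did not move the same way. Ddit4 was higher in CDS than in PBS cortex, while Sult1a1 and Fkbp5 were lower. Neither receptor gene was called, nor were the other 5 targets, Tsc22d3, Sgk1, Zbtb16, Pdk4 and Hif3a. The share of called genes over the whole table was 5.92%, with 2.75% higher and 3.18% lower. Among the 15454 protein-coding genes, the class of all 10 members, 7.09% were called and the median log2 fold change was 0.00. The median log2 fold change of the 10 genes was 0.06 in the authors' deposited table, against -0.02 over all genes, with 6 genes above 0 and 4 below. In bulk tissue a loss of cells that express a gene and less RNA of that gene per cell cannot be told apart.

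**Figure D1:**
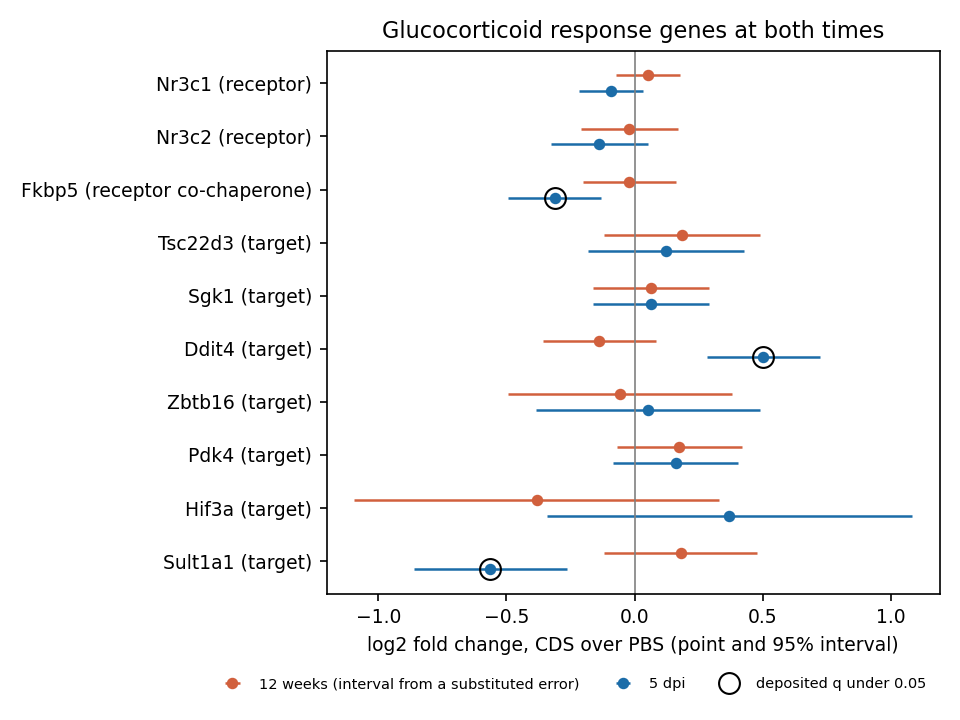
Log2 fold change of CDS over PBS for each of the 10 genes at 12 weeks (orange) and at 5 dpi (blue), with 95% intervals; circles mark a deposited q under 0.05. Every 12-week interval, drawn with a substituted error, spans 0, and the 5-dpi intervals of Ddit4, Sult1a1 and Fkbp5 lie clear of 0 while the other 7 span it.

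Among the receptors, Nr3c1 (chromosome 18, 39410545 to 39519421, minus strand, GRCm38) stood at -0.09 at 5 dpi in the authors' deposited table (q = 0.46). Its implied standard error of 0.06 gave a 95% interval of -0.22 to 0.03. Nr3c2 (chromosome 8, 76899442 to 77245012, plus strand), the receptor with the higher affinity for corticosterone, stood at -0.14 in the authors' deposited table (q = 0.467; interval -0.33 to 0.05). Both point values were below 0 and neither was past the threshold. The interval of Nr3c1 was the narrowest of the 10, and a log2 difference of 0.19 would have been enough to call it.

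Fkbp5 (ENSMUSG00000024222, chromosome 17, 28399094 to 28517527, minus strand) was lower at 5 dpi. It fell by 0.31 on the log2 scale, to a level 1.24-fold lower in CDS than in PBS cortex (the authors' deposited table, q = 0.0198). Its implied standard error was 0.09 and the interval ran from -0.49 to -0.13. Within the gene span of Fkbp5 lies an antisense transcript, AC154912.1, that shares 9958 bases with it and is not used here; whether counting used the strand is not given in the sources used here. Fkbp4 encodes FKBP52, the partner of FKBP51 that favours hormone binding and nuclear transport of the receptor. It stood at 0.22 at 5 dpi and was not called (the authors' deposited table, q = 0.294; interval -0.01 to 0.44). The difference between these 2 genes could not be tested without values per sample.

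Ddit4 (ENSMUSG00000020108, chromosome 10, 59949669 to 59951834, minus strand) encodes REDD1, which restrains the growth kinase complex mTORC1 and is induced by glucocorticoids, hypoxia and other stresses. It rose by 0.50 on the log2 scale at 5 dpi, 1.42-fold, with an implied standard error of 0.11 and an interval of 0.28 to 0.72 (the authors' deposited table, q = 0.000618). By q it ranked 266 among the 20375 genes, and its fold change lay at the 95.8 percentile. No other annotated gene overlaps it, and it has 1 annotated transcript.

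Sult1a1 (ENSMUSG00000030711, chromosome 7, 126672865 to 126676432, minus strand) encodes a sulfotransferase of phenols, which adds sulfate to small phenolic molecules. It fell by 0.56 on the log2 scale at 5 dpi, to a level 1.48-fold lower in CDS than in PBS cortex (the authors' deposited table, q = 0.00794). The implied standard error was 0.15 and the interval ran from -0.86 to -0.26. The gene shares 61 bases with Sgf29 on the opposite strand, and Sgf29 itself stood at 0.05 in the authors' deposited table (q = 0.836).

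The remaining targets include genes that are widely read as markers of hormone action. Tsc22d3 (chromosome X, 140539528 to 140600659, minus strand) encodes GILZ, a leucine zipper protein that mediates part of the anti-inflammatory action of glucocorticoids. It stood at 0.12 at 5 dpi in the authors' deposited table (q = 0.735; interval -0.18 to 0.43). Sgk1 (chromosome 10, 21882184 to 21999903, plus strand), a kinase that regulates ion channels and transporters and whose promoter holds the palindrome shown above, stood at 0.06 in the authors' deposited table (q = 0.827; interval -0.16 to 0.29). Both intervals overlapped that of Ddit4 (0.28 to 0.72), and the differences from Ddit4 were not tested.

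Pdk4 (chromosome 6, 5483351 to 5496309, minus strand), the kinase that switches pyruvate dehydrogenase off and so spares glucose, stood at 0.16 at 5 dpi in the authors' deposited table (q = 0.521; interval -0.08 to 0.40). The transcription factor gene Zbtb16 (chromosome 9, 48654297 to 48836222, minus strand) stood at 0.05 in the authors' deposited table (q = 0.936; interval -0.38 to 0.49). Hif3a (chromosome 7, 17031507 to 17062427, minus strand), a member of the hypoxia-inducible factor family, stood at 0.37 in the authors' deposited table, the second largest positive value of the 10, but with the largest implied error, 0.36 (q = 0.634; interval -0.34 to 1.08). A log2 difference of 1.08 would have been needed to call Hif3a, 0.66 for Zbtb16, 0.46 for Tsc22d3, 0.37 for Pdk4 and 0.34 for Sgk1. Over all genes the median implied standard error was 0.15, so Hif3a and Zbtb16 were less precisely measured than most genes, and the receptors, Fkbp5, Ddit4, Sgk1 and Pdk4 more precisely.

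**Figure D2:**
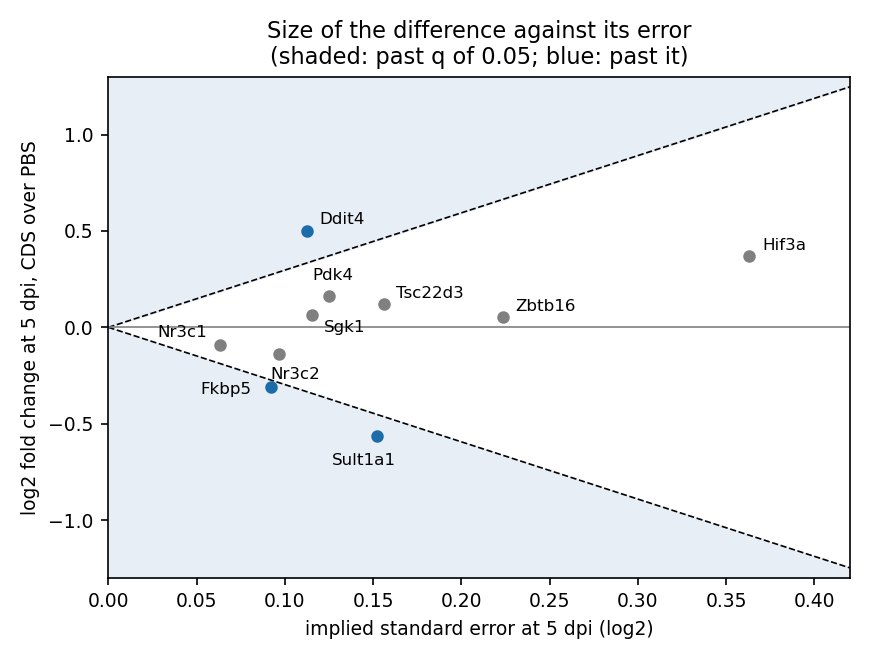
Log2 fold change at 5 dpi (vertical axis) against its implied standard error (horizontal axis, log2 units) for the 10 genes; the dashed lines bound the values that a q of 0.05 calls and the blue points are past it. Hif3a, at 0.37, lies well inside the lines because its error is 0.36, while Fkbp5, at -0.31 with an error of 0.09, lies just outside them.

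At 12 weeks none of the 10 genes passed the threshold, on a background of 0.191% called over the whole table (19 genes higher and 20 lower). Of genes called higher there were 0.0933%, and of genes called lower 0.0982%. All 10 members shared the highest q of the table, 0.999997, with 20103 genes in all. A p for such a gene could be bounded only as at least 0.0134, so a count at an unadjusted p under 0.05 is not known. The median log2 fold change of the 10 genes was 0.02 in the authors' deposited table, with 5 above 0 and 5 below. For 9 of them the value lay between -0.2 and 0.2. The exception was Hif3a, at -0.38.

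The receptors Nr3c1 and Nr3c2 stood at 0.05 and -0.02 at 12 weeks in the authors' deposited table, and Fkbp5 at -0.02. Among the targets, Tsc22d3 stood at 0.19, Sult1a1 at 0.18, Pdk4 at 0.17 and Sgk1 at 0.06 (the authors' deposited table). Below 0 lay Zbtb16 at -0.06 and Ddit4 at -0.14 in the authors' deposited table. Standard errors at 12 weeks could not be recovered for these genes, and those of 5 dpi were put in their place. Over the 272 genes for which both were known, the median ratio of the 12-week error to the 5-dpi error was 0.992, but those genes were selected for small p. With the substituted errors the interval ran from -0.20 to 0.16 for Fkbp5, from -0.36 to 0.08 for Ddit4 and from -0.12 to 0.48 for Sult1a1.

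Of the 10 genes, 5 had the same sign at both times and 5 the opposite sign. Ddit4 and Sult1a1, the called genes with the largest differences at 5 dpi, were among those of opposite sign. The log2 fold change of Ddit4 was lower at 12 weeks than at 5 dpi by a difference of -0.64 (standard error 0.16, interval -0.95 to -0.33). A z test of that difference over all genes with Benjamini-Hochberg adjustment called it (adjusted p = 0.021), on a background of 0.432% of genes called. For Sult1a1 the difference was 0.74 (interval 0.32 to 1.17) and did not pass (adjusted p = 0.0949). For Fkbp5 it was 0.29 (interval 0.04 to 0.55), also short of the threshold (adjusted p = 0.537). Hif3a had a difference of -0.75 with an interval of -1.76 to 0.26, and the adjusted p of the other 6 genes was 0.80 or higher. The call for Ddit4 rests on the substituted error: with that error 25% larger its adjusted p was 0.123. The 2 comparisons share no sample.

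**Figure D3:**
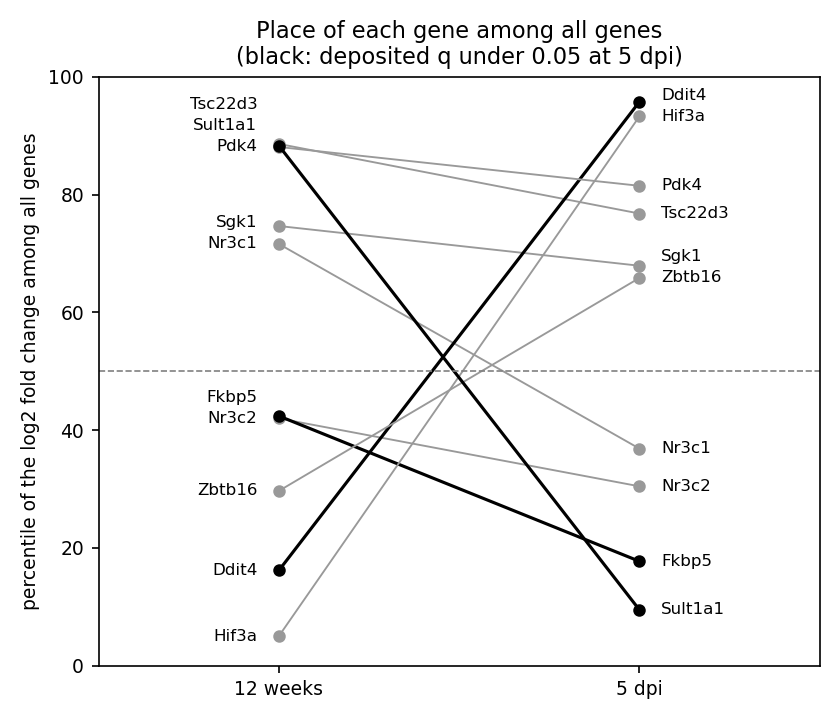
Percentile of each gene's log2 fold change among all 20375 genes at 12 weeks (left) and at 5 dpi (right), with lines joining a gene and black for the 3 genes called at 5 dpi. Ddit4 stands at the 16.2 percentile at 12 weeks and at 95.8 at 5 dpi, Sult1a1 at 88.3 at 12 weeks and 9.47 at 5 dpi, and Tsc22d3, Pdk4 and Sgk1 stay above the middle at both times.

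The wider pathway was read through lists of genes chosen by function. In all, 117 of 127 listed genes were found in the tables under their symbols. At 5 dpi 7 of the 117 rose and 4 fell, where 5.92% of all genes and 7.09% of protein-coding genes were called. At 12 weeks none passed at a q under 0.05 or under 0.1. The median was 0.02 at 12 weeks and 0.01 at 5 dpi in the authors' deposited table. Unadjusted p was under 0.05 at 5 dpi for 26 of the 117 and for 19.1% of all genes.

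Of 29 other target genes of the receptor, 3 rose, 1 fell and 25 were not called at 5 dpi. That is 13.8% of the list, where 5.92% of all genes and 7.09% of protein-coding genes were called. The list was chosen with earlier results of these data known, and no set test was run. Their median in the authors' deposited table was 0.12, against -0.02 over all genes and 0.00 over protein-coding genes. Map3k6, a stress-activated kinase gene, rose by 0.48, and Mt1, a metal-binding metallothionein, by 0.35 in the authors' deposited table (q of 0.0132 and 0.0244). Cebpb, a transcription factor of inflammatory and metabolic genes, rose by 0.67 in the authors' deposited table (q = 0.0384). Mfsd2a, a lipid transporter of the blood-brain barrier, fell by 0.44 in the authors' deposited table (q = 6.53e-05). Rhob, Mt2 and Cebpd stood at 0.18, 0.46 and 0.62 and were not called (the authors' deposited table, q of 0.0681, 0.0867 and 0.0951). Cebpb, Cebpd, Mt1 and Mt2 are also known as genes of the acute inflammatory response.

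The clock and stress targets Per1 and Klf9 stood at -0.17 and 0.04 at 5 dpi in the authors' deposited table (q of 0.689 and 0.824). Dusp1 and Errfi1, feedback inhibitors of kinase signalling, stood at 0.38 and 0.12 in the authors' deposited table (q of 0.416 and 0.464). These 4 genes belong to the most commonly used readouts of hormone action besides Fkbp5 and Tsc22d3, and all 4 were named after their values were seen. Their fold changes at 12 weeks lay at -0.11 for Per1, 0.08 for Klf9, -0.06 for Dusp1 and 0.04 for Errfi1 (the authors' deposited table), and no call was made.

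None of the 14 chaperones and co-chaperones of the receptor was called at 5 dpi (unadjusted p under 0.05 for 3). The authors' deposited table gave a median of 0.13, 11 of 14 lay above 0, and the values ran from -0.12 to 0.26. The phosphatase Ppp5c stood at 0.14, the kinase co-chaperone Cdc37 at 0.24 and the ubiquitin ligase Stub1 at 0.13 (the authors' deposited table, q of 0.185, 0.241 and 0.248). None of the 12 coregulators was called either (unadjusted p under 0.05 for 2). Of these, 10 lay below 0 and the median in the authors' deposited table was -0.13, among them the acetyltransferase Ep300 at -0.43 and the coactivator Ncoa3 at -0.15 (q of 0.225 and 0.301). At 12 weeks the median was 0.03 for the chaperones and -0.01 for the coregulators (the authors' deposited table), and none was called.

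Among 8 measured genes of steroid metabolism and transport, Srd5a1, a 5-alpha-reductase that converts several steroids including corticosterone, rose by 0.28 at 5 dpi in the authors' deposited table (q = 0.0201), and the other 7 were not called. That is 12.5% of the list, where 5.92% of all genes and 7.09% of protein-coding genes were called. Hsd11b1, which regenerates active hormone inside cells, stood at -0.09, and Abcb1a, the efflux pump that limits entry of some steroids into the brain, at 0.00 in the authors' deposited table (q of 0.872 and 0.986). None of the 6 measured stress axis genes was called at 5 dpi, nor was any at an unadjusted p under 0.05. The authors' deposited table gave them a median of 0.19, with 4 above 0 and 2 below. Crhr2, a receptor of the urocortins and of CRH, stood at 0.42, the vasopressin receptor gene Avpr1a at 0.64 and Pomc, which encodes the precursor of ACTH, at 0.35 (the authors' deposited table, q of 0.357, 0.38 and 0.418). Crhbp, which encodes a binding protein of CRH, stood at 0.03 in the authors' deposited table (q = 0.924). The 2 below 0 were Crh, the peptide that starts the hormonal stress response and that cortical interneurons also make, at -0.14, and its receptor Crhr1 at -0.09 (the authors' deposited table, q of 0.727 and 0.773).

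REDD1, the product of Ddit4, acts on mTORC1 through the TSC complex. Of 15 genes of that axis Akt1s1, which encodes the mTORC1 inhibitor PRAS40, was the one called at 5 dpi, at 0.29 in the authors' deposited table (q = 0.0038). That is 6.67% of the axis, close to the 5.92% called over all genes and the 7.09% called over protein-coding genes. Tsc1 stood at -0.06 in the authors' deposited table (q = 0.43). Ddit4l, the relative of Ddit4, stood at 0.30 at 12 weeks and -0.25 at 5 dpi in the authors' deposited table, opposite in sign to Ddit4 at each time, and was called at neither (q = 0.268 at 5 dpi).

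Of 19 measured relatives of the members 2 rose and 1 fell at 5 dpi, where 2.75% of all genes were higher and 3.18% lower. Pdk1, another pyruvate dehydrogenase kinase, rose by 0.23, where Pdk4 stood at 0.16 (the authors' deposited table, q = 0.0131 for Pdk1). Sult2b1, a sulfotransferase of cholesterol and other steroids, rose by 0.38, where Sult1a1 fell (the authors' deposited table, q = 0.031 for Sult2b1). Sgk3 fell by 0.26, where Sgk1 stood at 0.06 (the authors' deposited table, q = 0.0493 for Sgk3). The differences between relatives were not tested, for want of values per sample.

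**Figure D4:**
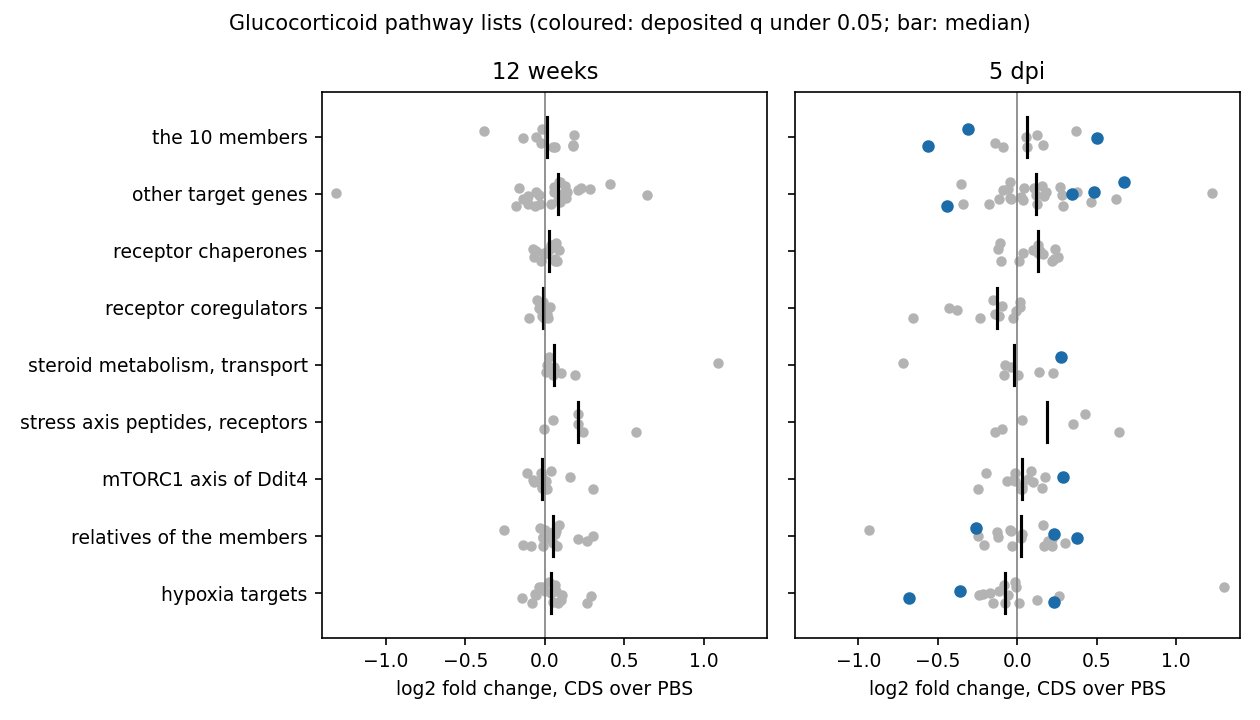
Log2 fold change of CDS over PBS for the 10 genes and for each list of the wider pathway at 12 weeks (left) and 5 dpi (right); each point is a gene, coloured where the deposited q is under 0.05, with a bar at the median. There is no called gene at 12 weeks, and called genes lie on both sides of 0 at 5 dpi.

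The 3 called genes moved at a time when markers of several cell types differed widely. At 5 dpi all 10 microglia markers were lower in CDS cortex than with PBS, with a median of -1.54 (the authors' deposited table) and a range of -2.78 to -0.50. All 8 oligodendrocyte precursor markers were lower too, from -4.53 to -1.08 (the authors' deposited table). Of 10 reactive astrocyte markers 8 were higher, with a median of 0.91 (the authors' deposited table), and of 9 fibroblast and meningeal markers 5 were higher and 1 lower. Of the 10 general astrocyte markers 1 was called, higher; of the 10 endothelial markers none was, and of the 10 myelinating oligodendrocyte markers none was, although all 10 of the last lay above 0 (unadjusted p under 0.05 for 1 and 6 of these lists' genes). The 10 excitatory neuron markers held 1 called gene, higher, and the 10 interneuron markers 3, of which 1 was higher and 2 lower. Of 9 mural cell markers 2 were higher and 1 lower; the lower one was Cspg4, which is also 1 of the 8 precursor markers, and the other 8 lay above 0. Also at 5 dpi, of 5 measured leukocyte markers 2 were higher and 1 lower.

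At 12 weeks, when none of the 10 glucocorticoid genes was called, all 8 precursor markers were still lower, with a median of -0.88 (the authors' deposited table). The microglia markers had a median of -0.37 (the authors' deposited table), and all 10 lay below 0 with none called. The reactive astrocyte markers had a median of 0.21 (the authors' deposited table), with 9 above 0, 1 below and none called. All 10 myelinating oligodendrocyte markers lay above 0, with a median of 0.44 (the authors' deposited table), and none was called. Of the 9 fibroblast and meningeal markers 2 were higher at 12 weeks, Col15a1 and Lum, at 1.61 and 1.33 in the authors' deposited table. At 12 weeks all 9 lay above 0, with a median of 0.72 (the authors' deposited table). At 5 dpi 7 lay above 0 and 2 below, with a median of 0.61 (the authors' deposited table). Of the other cell type markers, the one called at 12 weeks was Cspg4 among the mural cell markers, already counted with the precursors. The part of these cell types in the differences of Ddit4, Sult1a1 and Fkbp5 was not tested.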

How the data were processed

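Per the labels' protocols, stranded total RNA libraries depleted of ribosomal RNA were made from 20 samples in 4 groups. The submitters' processing notes name STAR, featureCounts, DESeq2 and the build GRCm38.p5; the sources used here give no version, filter or model. Per the file headers, the deposited values are, at each time, the log2 fold change (CDS over PBS) and the q-value of 20375 genes. Columns of per-sample values numbered 0, so no test was refitted.

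The q-values were taken to be Benjamini-Hochberg adjusted over all genes. From them p was recovered (p bounds at 5 dpi at most 1.04-fold apart), then z, and the implied standard error as log2 fold change over z. Intervals are at 95% and carry that assumption. Tied genes at 12 weeks took the larger of the 5-dpi error and the smallest the tie allows. The z test of the difference between times ran over all genes (Python 3.11.15, scipy 1.17.1). The recovery and the test were tested on simulated data in which each gene had the same error at both times. That simulation could therefore not check the substituted error at 12 weeks. Symbols were those of the tables, with GENCODE M21 (GRCm38) for spans and overlaps, and for names where a symbol was blank. Promoters are from RefSeq.

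Members and lists were chosen with earlier results of these data known. Named genes are the 10 members, every gene of the pathway lists with q under 0.05, and up to 3 others per list with the smallest q; others were named after their values were seen. A gene that this rule takes is not reported here. Alternatives were other q thresholds, Bonferroni adjustment, adjustment over protein-coding genes, a minimum fold, centring on the median, and other errors at 12 weeks.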

Additional observations from a re-analysis of the deposited data

Results flagged for a closer look

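The log2 fold change of Ddit4 differed between the times, by -0.64 (12 weeks minus 5 dpi), with values of -0.14 at 12 weeks and 0.50 at 5 dpi in the authors' deposited table. The z test over all genes with Benjamini-Hochberg adjustment gave an adjusted p of 0.021. The standard error at 12 weeks was substituted. Among the 10 members and the 117 genes of the pathway lists, no other gene passed that test; 88 of 20375 genes did.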

How the results depend on the processing

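Of the 10 genes, 3 were called at 5 dpi, and 3 also at a q under 0.1 and with adjustment over protein-coding genes alone, while at a q under 0.01 Ddit4 and Sult1a1 were called. None was called (0) with Bonferroni adjustment or with a fold of at least 1.5; the second follows from the size of the differences, all under that fold. Of the 11 pathway genes called at 5 dpi, 4 were called at a q under 0.01, 2 with a fold of at least 1.5 (Cebpb and Hk2) and 1 with Bonferroni adjustment (Mfsd2a). At 12 weeks the count was 0 for the members and for the pathway lists under all 5 alternatives. For the members, none of the 5 could have raised it. A q under 0.1 could not, because all 10 members share the highest q, 0.999997. A q under 0.01 or a minimum fold could not exceed the main count of 0. For Bonferroni adjustment and adjustment over protein-coding genes, the unknown p of a tied gene was set to its maximum, so no member could have been called. The count of members that differed between times was 1; it was 0 with the substituted error 25% larger, 2 (with Sult1a1) at an adjusted p under 0.1, and 1 with the 5-dpi error alone. Restricted to genes with p recovered at both times, no member could be tested. Centring on the median of all genes (-0.02 at 5 dpi) or of protein-coding genes (0.00) turned the sign of no called value and moved every member's log2 fold change by less than its implied error. No paired analysis was possible because values per sample are lacking, and for the same reason no replicate block could be fitted and no replicate could be left out. The depth is unknown. The precision of Hif3a and Zbtb16 limits what could be seen for them.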

Other observations

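Ddit4 and Hif3a also belong to the hypoxia response, for which other genes were listed. Of 17 measured hypoxia targets 1 rose and 2 fell at 5 dpi, and the median was -0.08 in the authors' deposited table, with 12 of the 17 below 0; over all genes 5.92% were called. Pfkfb3, which makes the activator of glycolysis fructose-2,6-bisphosphate, fell by 0.36, and Hk2, an enzyme of the first step of glycolysis, fell by 0.68 (the authors' deposited table, q of 0.000868 and 0.00956). Pdk1 rose by 0.23, with a q of 0.0131 in the authors' deposited table. Ndrg1, a gene known to be induced by hypoxia, stood at 0.26 in the authors' deposited table, and Vegfa, the endothelial growth factor, at -0.15, neither of them called (q of 0.0729 and 0.0789). Unadjusted p was under 0.05 for 7 of the 17 and for 19.1% of all genes. At 12 weeks none was called and the median was 0.04 in the authors' deposited table.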
